A study of Mus musculus with 45 samples.

Results

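The 13 libraries described here are the time course of the OKMS line in serum and LIF, out of 45 libraries in the series, and were taken by their labels for line, medium, day and flow cell. OKMS stands for the reprogramming factors Oct4, Klf4, Myc and Sox2. The cells, labelled O4G, are mouse neural progenitors made from Oct4-GFP embryonic stem cells and stably transfected with a doxycycline-inducible construct, with the genotype label OKMS-Luciferase-AS. What the luciferase part does is not stated in the labels. At day 0 the cells were in progenitor medium with EGF, FGF-2 and heparin, without doxycycline. From then on they were kept in FBS-LIF, a serum medium with leukemia inhibitory factor, with doxycycline to the last day. The label of the medium and the label of the factors therefore change together between day 0 and day 2. The control for that change is the wild-type progenitor line, which carries no factor construct according to its labels. It has 4 libraries in progenitor medium and 3 after 2 days in FBS-LIF with doxycycline.

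RNA was read as full-length cDNA on Oxford Nanopore flow cells. R9 libraries (days 0, 2, 4, 6, 10, 14 and 20) were direct cDNA of poly(A)-enriched RNA. R10 libraries (days 0, 2, 4, 6, 10 and 18) came from total RNA without that enrichment. Each day has 1 library per chemistry, and neither separate cultures nor a shared RNA is stated for the R9 and R10 library of a day. P-values of the tests between days therefore measure how far R9 and R10 differ in their changes between days. A constant difference between the chemistries is taken out. The spread that remains is shared by all stages and may be technical. A trend test within 1 chemistry rests on the scatter of its libraries around a fitted curve. The day 2 test against the wild type also takes in the spread between wild-type libraries of the same chemistry. Values are the authors' CPM, reads of a gene scaled to a common total of reads assigned to genes, and are given in day order. Day 20 in R9 and day 18 in R10 stand together as the late stage, although their days differ.

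Reprogramming of a differentiated cell is usually described as a sequence. The somatic programme is silenced, a transient state with altered adhesion and inflammatory genes appears, cells regain epithelial features such as E-cadherin and keratins, and the endogenous pluripotency network is switched on in steps. Oct4 and Sox2 bind together to regulatory DNA, Klf4 binds GC-rich CACCC sites, and Myc acts broadly on growth and division. LIF signals through gp130 and STAT3 and sustains mouse pluripotent cells. Neural progenitors already express Sox2, and mostly also Myc.

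Depth ranged from 478805 reads (day 4, R9) to 2274266 reads (day 0, R10), with 13297 to 16992 genes above 0 CPM. A count of 0 allows up to 3 reads, which is 6.27 CPM at the shallowest library and 1.32 CPM at the deepest, for counting error only. The R10 library of day 18 stood apart from the other 12: 17.3% of its transcript TPM fell on incomplete splice matches, against 7.74% to 10.3% elsewhere, 12.5% of its reads came from its 10 highest genes, and 2.03% were mitochondrial. The main counts that rest on it are also given without it. Outside the 13 libraries, R10 libraries of day 18 from the OKS line or another medium had 16.4% to 20.3% on incomplete splice matches and 1.56% to 2.04% mitochondrial reads. R10 embryonic stem cell libraries had 14.6% to 15.6% on such matches, apart from replicate 1 at 10.5%. In R10 the late stage thus cannot be told apart from whatever sets these libraries off. Day 0 cells carried the progenitor genes: Fabp7, a brain lipid-binding protein, was at 3623 and 3951 CPM and Olig2, a glial lineage factor, at 238 and 167 CPM in R9 and R10. Nes was at 307 and 326 CPM and Ptprz1 at 245 and 224 CPM, while Nanog was at 1.35 and 0 CPM. Fewer cells of a type and less RNA per cell cannot be told apart in these bulk libraries.

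The factors were higher after day 0, except Myc. Pou5f1, which encodes Oct4, was at 0, 52, 48, 330.2, 30.9, 873 and 1457 CPM in R9 and 3.51, 126, 272, 270.3, 331 and 889 CPM in R10. Its R9 library of day 10 was low among the R9 libraries after day 4, and the late stage was the highest in both chemistries. Klf4 was at 4.04, 59.9, 64.7, 91.4, 30.9, 91.8 and 96 CPM in R9 and 5.27, 141, 281, 252, 49.2 and 23.7 CPM in R10, highest from day 4 to day 6 in R10 and without such a peak in R9. Sox2 started at 40.4 and 40.9 CPM and stood at 121 and 101 CPM at day 2. All 3 were called over the timeline (limma moderated F test, Benjamini-Hochberg over 18965 genes, adjusted p of 7.70e-04, 0.00738 and 0.0257). Myc was at 104, 74.6, 87.6, 66.9, 15.5, 77 and 93.6 CPM in R9 and 140.2, 103, 166, 136, 39 and 5.94 CPM in R10, and passed no timeline test (adjusted p = 0.203). Reads of the construct may have been assigned to these 4 genes, and the gene table does not separate them from endogenous transcripts.

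**Figure D1:**
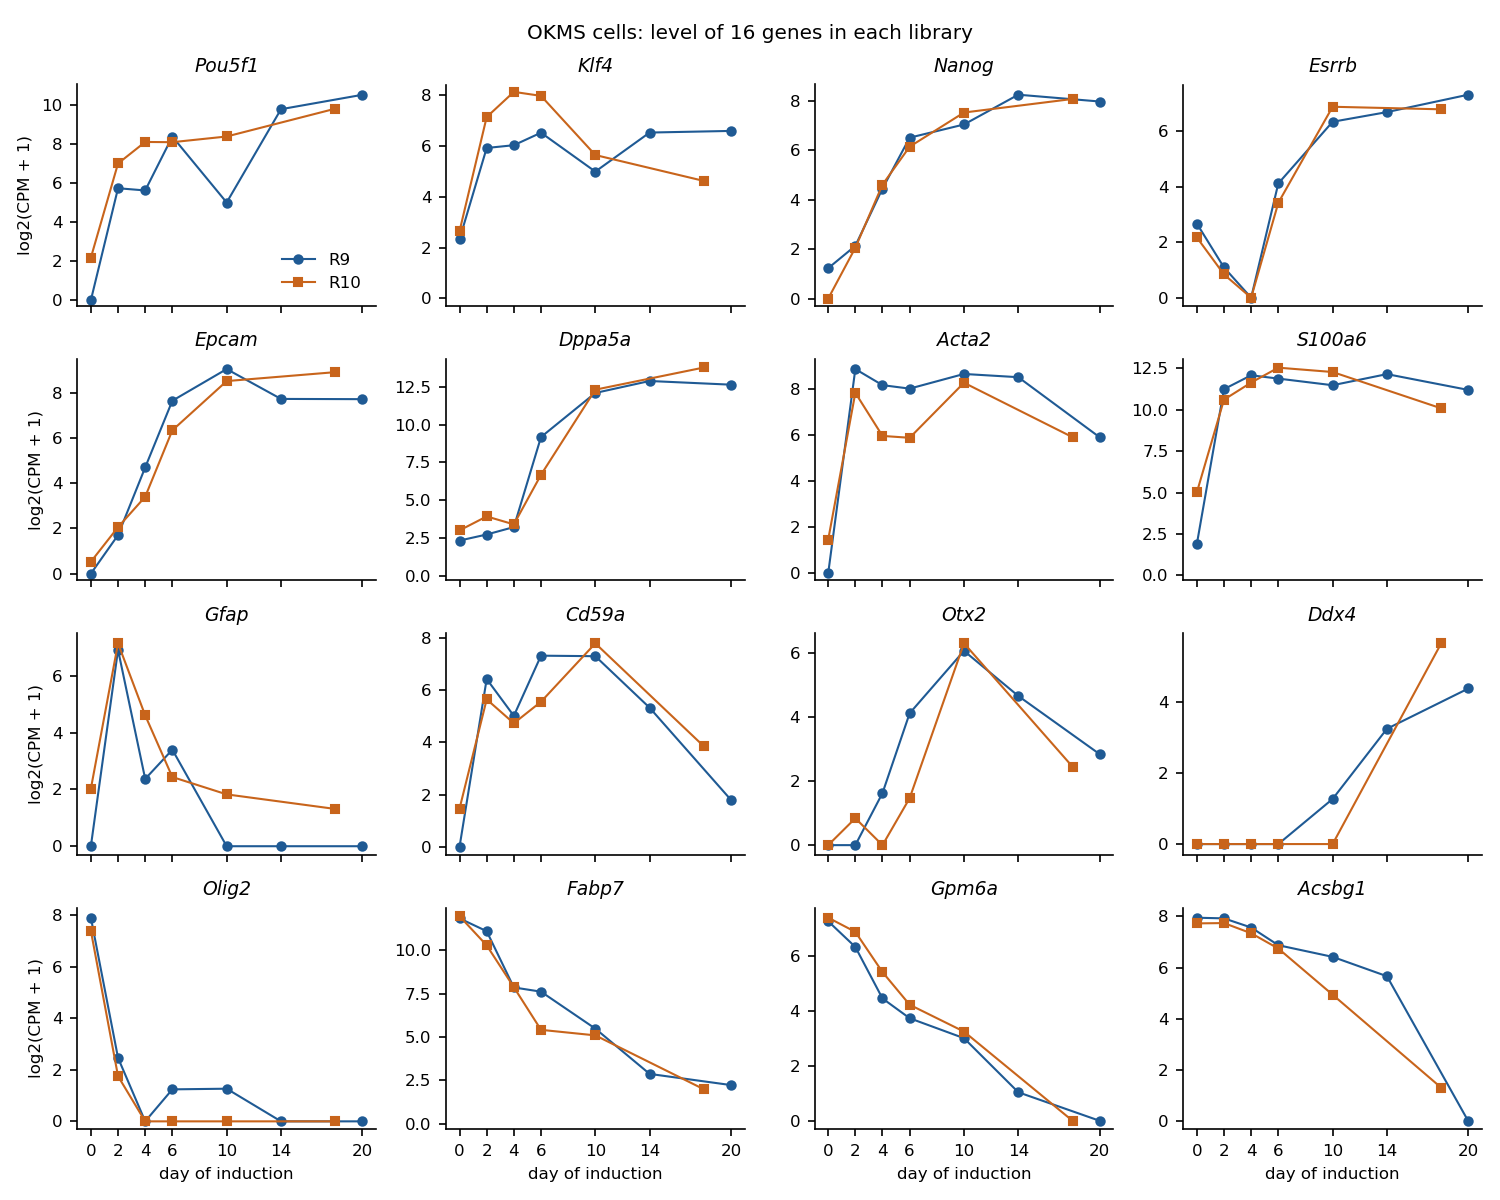
CPM on a log2(CPM + 1) axis against day for genes named in the text, with 1 point per library and separate marks for R9 and R10. Olig2 and Fabp7 are far below day 0 by day 6, while Gpm6a and Acsbg1 have a later onset. Nanog is little above day 0 at day 2 and higher from day 4, and Dppa5a is highest from day 10.

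Over the timeline, 4609 of 18965 genes tested (24.3%) were called, at an adjusted p under 0.05 and a largest stage difference of at least 1 on the log2(CPM + 1) scale. Differences on this scale understate changes of low genes and are no fold where a stage is at 0 CPM. Of the calls, 2551 genes had their largest difference above day 0 (13.5% of genes tested) and 2058 below (10.9%). Each called gene was placed in a wave by its onset, the first stage that held at least 50% of its largest difference. It counts as sustained where the late difference kept at least 50% of that value and as transient otherwise. Day 2 held the most onsets, 1519 genes, against 892 at day 4, 559 at day 6, 814 at day 10 and 825 at the late stage. The largest difference itself lay at day 2 in 608 genes, at day 10 in 1033 and at the late stage in 2142. Protein-coding genes made up 3869 of the calls, of 13542 tested, and lncRNAs 247 of 1383.

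Of the genes that fell, 1913 were sustained and 145 transient, and of the genes that rose, 1548 and 1003. That is 93% and 60.7% sustained, without the day 18 library of R10 89.2% and 60.3%, and with quantile normalization 87.7% and 70.4%. With each library centred on its median the shares were 77.3% and 78.2%, so the difference between falls and rises was not seen under that scaling. Of the transient rises, 717 had their onset at day 2. The sustained rises comprised 331 genes with onset at day 2, 194 at day 4, 252 at day 6, 498 at day 10 and 273 at the late stage. The sustained falls comprised 400, 564, 222, 175 and 552 genes in the same order. Without the day 20 library of R9, 6425 genes were called over the timeline, without the day 18 library of R10 6114, and without the day 0 library of R9 2516.

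**Figure D2:**
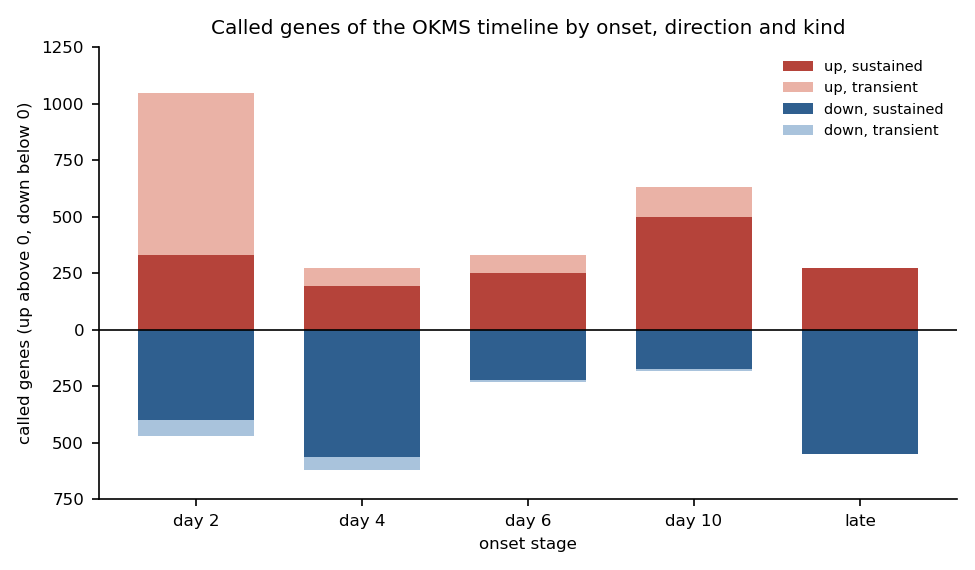
Number of called genes of the timeline by stage of onset, with rises drawn upward and falls downward. Sustained and transient genes are drawn apart. The day 14 library of R9 took no part in placing the genes.

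The median levels of the waves come from the same values that placed the genes, so they describe the waves and do not test them. Genes of the transient day 2 wave had a median of 1.23 at day 0, 4.75 at day 2 and 1.79 at day 20 in R9, and 2.03, 4.58 and 1.99 in R10 at days 0, 2 and 18, on the log2(CPM + 1) scale. Genes with a sustained rise from the late stage had a median of 0 at every day up to day 10 in both chemistries. Theirs was 3.27 at day 20 and 2.79 at day 18, against 2.84 and 2.79 over all genes tested. The filter asks for 1 CPM in 2 libraries, so such genes can enter the test through the late libraries alone.

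Waves were also computed from R9 alone and from R10 alone. The direction was the same in both for 94.1% of called genes and 72.6% of all genes tested, and sustained or transient for 83.2% and 58.6%. The stage of onset was the same for 58.0% and 36.4%. Since the calls need both chemistries to move together, the share among called genes is set in part by the test. A separate trend test on the square root of day within each chemistry called 2464 of 17620 genes in the 7 R9 libraries (14%) and 2200 of 16417 in the 6 R10 libraries (13.4%). Of the R9 calls tested in R10, 2331 genes, 94% had the same sign and 1090 (46.8%) were called there too, which is 49.8% of the 2189 R10 calls tested in R9. For all 15339 genes tested in both, the sign was the same in 76.3%, and 25 genes were called in both with opposite sign.

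The step from day 0 to day 2 called 1039 genes (5.48%), of which 707 rose (3.73%) and 332 fell (1.75%). The genes with the largest rise were cytoskeletal, calcium-binding and secreted products. Acta2, smooth muscle actin (chromosome 19, 34241114 to 34258516, the span of its transcripts in the deposited mm10 annotation), was at 0, 468, 288, 259, 404, 366 and 59.1 CPM in R9 and 1.76, 228, 61.7, 58.3, 309.7 and 59.4 CPM in R10. It was near 0 in both day 0 libraries and above 50 CPM in every later library, with a rise of 7.63 ± 0.72 (SE, adjusted p = 4.99e-04, limma). S100a6, a calcium-binding protein, was at 2.69, 2422, 4329.9, 3769, 2855, 4547 and 2343 CPM in R9 and 31.2, 1561, 3192, 5954, 4964 and 1085 CPM in R10. Every later library exceeded both day 0 libraries, and the rise was 7.48 ± 0.78. Anxa3, an annexin, rose by 7.04 ± 0.65. Ccn5 and Npvf, a secreted matrix protein and a neuropeptide precursor, rose by 6.53 ± 0.83 and 6.45 ± 0.84 and were low again at the late stage. Ccn5 was at 0, 108, 50.1, 25.9, 21.1, 3.17 and 0 CPM in R9 and 0, 76.7, 19.2, 4.42, 19.5 and 2.97 CPM in R10. Without the R9 library of day 2, only 144 genes were called at this step. Npvf then had an adjusted p of 0.0587.

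The named falls of day 2 include genes of the glial and neuronal lineages. Olig2 (chromosome 16, 91225415 to 91228678) was at 238, 4.52, 0, 1.36, 1.41, 0 and 0 CPM in R9 and 167, 2.37, 0, 0, 0 and 0 CPM in R10. It was under 5 CPM from day 2 on, a fall with log2 difference -5.54 ± 0.60 (adjusted p = 9.26e-04, limma). Nptx1, a neuronal pentraxin, was at 95.6 and 95.3 CPM at day 0 and 0 and 0.79 CPM at day 2 (-6.17 ± 0.91). Its adjusted p was 0.0806 without the R9 library of day 2. Pf4, a platelet chemokine, was at 105 and 58.9 CPM at day 0 and at 0 CPM in all 11 later libraries. Dcpp1 (-6.01 ± 0.62) and Stpg4 (-5.59 ± 0.50) fell likewise. Olig1 fell with Olig2, from 399.8 and 301 CPM to 27.1 and 5.53 CPM.

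Most of what changed at day 2 also changed in wild-type cells in the same medium. Of the 707 genes that rose, 89.7% had the same sign in the wild type and 78.1% also reached a difference of 1 there, and of the 332 that fell 96.7% and 79.8%. Over all genes in both fits these shares were 66.4% and 27.6%. The difference between the changes, OKMS minus wild type, was tested itself: 1052 of 17437 genes passed (6.03%), 891 above the wild type (5.11%) and 161 below (0.923%; limma interaction contrast, 11 libraries). Among the 707 genes that rose in OKMS, 94 rose by more than in the wild type and 10 by less. The R10 wild-type libraries held 0.153% to 0.319% mitochondrial reads, less than the 1.08% and 1.51% of the OKMS libraries at days 0 and 2. In R9 the ranges overlapped, 0.493% to 0.884% against 0.7% and 0.708%. The 10 highest genes held 13.8% and 10.6% of the reads in the R10 wild-type libraries of day 2, against 8.06% and 8.57% in those of day 0 and 6.90% in OKMS at day 2, and 1 of them had 12.9% of its TPM on incomplete splice matches. Without each of these in turn 1057 and 833 genes passed. The part of the mitochondrial share in the counts was not tested. Without the R10 library of OKMS day 2, 379 genes passed.

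Cell cycle genes gave the most uniform contrast. All 22 on the list had a change above that of the wild type, where 5.11% of genes tested had one. Ube2c, an enzyme that marks mitotic proteins for degradation, was at 695, 524, 654 and 700.4 CPM in the wild-type progenitors (R9, R9, R10, R10) and at 4.24, 3.91 and 5.27 CPM at wild-type day 2 (R9, R10, R10). In OKMS it went from 462 and 503 to 254 and 271 CPM. The groups did not overlap at day 2, and the difference of changes was 6.02 ± 0.27 (SE, adjusted p = 1.03e-07, limma). Mki67, a proliferation antigen, stood at 4.24, 3.52 and 0.329 CPM at wild-type day 2 and at 70.1 and 94.8 CPM in OKMS (4.71 ± 0.64). Top2a and Ccnb2, a topoisomerase and a mitotic cyclin, differed by 5.51 ± 0.86 and 5.37 ± 0.40. Pclaf, a replication clamp partner, differed by 6.48 ± 0.49. Ube2c and Pclaf were singled out after their values were seen. Within OKMS alone 2 of 22 on the list fell at this step (1.75% of all genes) and none rose (3.73%), and the list median was -0.54, against 0.08 for all genes tested. Summed over the list, the level was 4842 and 5451 CPM at day 0, 3182 and 3819 CPM at day 2, and 7160 and 8400 CPM at the late stage in R9 and R10.

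Myc was part of the same contrast although it did not rise. It was at 104, 136, 211 and 138 CPM in the wild-type progenitors and 7.07, 5.87 and 14.8 CPM at wild-type day 2, against 104 and 140.2 CPM and 74.6 and 103 CPM in OKMS. The difference of changes was 3.52 ± 0.44 (adjusted p = 3.35e-04, limma). Pou5f1 and Klf4 differed by 5.21 ± 1.03 and 4.17 ± 0.95, and Sox2 by 0.89 ± 0.34 with an adjusted p of 0.153. Fetub, a secreted protease inhibitor, was at 0, 0 and 0 CPM at wild-type day 2 and 144 and 145 CPM in OKMS (6.12 ± 1.07). Ly6a, a surface antigen also known as Sca-1, differed by 4.91 ± 0.84, and Perp and Lama1, a desmosome protein and a laminin chain, by 5.09 ± 0.77 and 5.00 ± 0.62. Below the wild type were Olig1 (-2.17 ± 0.51) and the neural genes Sparcl1 (-1.46 ± 0.32) and Gpm6a (-1.63 ± 0.31).

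**Figure D3:**
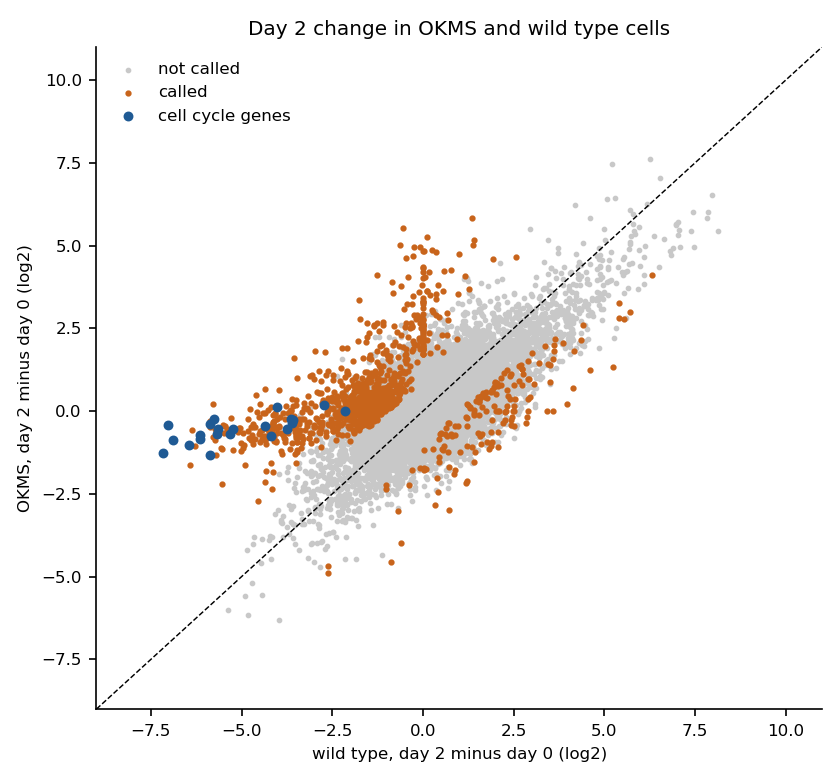
Day 2 minus day 0 on the log2(CPM + 1) scale, in wild-type cells on the horizontal axis and in OKMS cells on the vertical axis, 1 point per gene. Cell cycle genes lie left of the diagonal, lower in the wild type than in OKMS.

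Of 16 astrocyte and acute-phase genes, 8 rose from day 0 to day 2 (3.73% of all genes) and 1 fell (1.75%), and 6 were transient with onset at day 2. The change was below that of the wild type for 2 of the 16 (0.923% of all genes) and above it for none. Gfap, the astrocyte filament protein, was at 0, 119.8, 4.17, 9.55, 0, 0 and 0 CPM in R9 and 3.08, 141, 23.4, 4.42, 2.55 and 1.48 CPM in R10. Its level at day 2 was at least 100 CPM in both chemistries and under 25 CPM in all later ones. In the wild type, day 2 held 236, 3015 and 1056 CPM, and the difference of changes was -1.63 ± 0.71 (adjusted p = 0.217). Acta2 stood at 236, 47 and 107 CPM at wild-type day 2, with a difference of changes of 1.53 ± 0.83 (adjusted p = 0.34). LIF and STAT3 genes moved at the same time: 6 of 11 rose (3.73% of all genes). None of the 11 was called as changing by more or by less than in the wild type. Socs3, the feedback inhibitor of STAT3 signalling, was at 6.73, 207, 125, 158, 114, 73.9 and 54.2 CPM in R9 and 12.3, 83.8, 57.5, 66.2, 188 and 68.3 CPM in R10, above day 0 in all 11 later libraries. Of the Ly6, S100 and annexin genes, 12 of 16 rose at day 2 (3.73% of all genes). As sustained rises with onset at day 2 were placed 10 of them, against 331 of the 18965 genes tested. This list, like the others, was chosen with earlier results of these data known, so its counts describe the members and do not test the families. Of the 16, 5 also changed by more than in the wild type (5.11% of all genes), Ly6a and Anxa8 (4.33 ± 0.62) among them.

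From day 2 to day 4 few genes passed: 88 (0.464%), of which 3 rose (0.0158%) and 85 fell (0.448%). Without the late stage 576 genes passed, 67 up and 509 down. The 3 that rose were Nanog, Lsr and Fgfbp1. Nanog, a central pluripotency factor, was at 1.35, 3.39, 20.9, 90.1, 131, 303 and 249.95 CPM in R9 and 0, 3.16, 23.4, 69.8, 183 and 269 CPM in R10. The R9 and R10 libraries of each day lay close together and stepped up at days 4, 6 and 10. The rise at this step was 2.43 ± 0.42 (adjusted p = 0.0475, limma). Lsr, a tight-junction receptor of epithelia, rose by 2.04 ± 0.33 (adjusted p = 0.0459), and Fgfbp1, which releases FGF from the matrix, by 2.02 ± 0.35 (adjusted p = 0.0493). All 3 lost the call when any library of days 0 to 10 was left out, with adjusted p from 0.0559 to 0.561.

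Of the 5 named falls of day 4, Crygs, Pcp4l1, Crybb1 and Cyp46a1 had been higher at day 2 than at day 0. Crygs and Pcp4l1, a lens crystallin and a calmodulin regulator, were near their day 0 levels again. Pcp4l1 was at 2.69, 121, 2.09, 2.73, 1.41, 3.17 and 0 CPM in R9 and 4.83, 148, 8.51, 1.77, 3.39 and 1.48 CPM in R10, a step of -4.64 ± 0.63. Crygs moved by -4.71 ± 0.75. Crybb1, another crystallin, was at 4.04, 20.3, 0, 0, 0, 0 and 0 CPM in R9 and 7.47, 18.2, 0, 0, 0.849 and 0 CPM in R10 (-4.34 ± 0.53, adjusted p = 0.0227). Sorcs1, a neuronal sorting receptor, had kept its day 0 level at day 2 and was at 36.3, 42.9, 2.09, 4.09, 1.41, 0 and 0 CPM in R9 and 35.1, 37.1, 0, 0, 0.849 and 1.48 CPM in R10. Cyp46a1, the brain cholesterol hydroxylase, moved by -4.41 ± 0.61. These 5 also lost the call without any one of 8 or more of the 12 libraries. Nes, the progenitor filament protein, had its onset at this stage, at 307, 66.7, 6.26, 25.9, 35.2, 22.2 and 8.62 CPM in R9 and 326, 51.4, 18.1, 13.2, 45.8 and 11.9 CPM in R10, and so had Bcan and Ncan. Nes was already well below day 0 at day 2 in both chemistries, just short of the 50% that sets the onset.

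The promoters of Nanog and Zfp42, pluripotency genes with onset at day 4 and at day 6, were chosen after their matches were seen and are shown from RefSeq with the build GRCm38.p6 (the assembly of mm10), 250 bases before to 50 after the annotated start, 5′ to 3′ on the gene's strand. Capitals mark each match of the octamer core ATGCAAA and of the CACCC box CCACCC on either strand. Nanog (first annotated start) is at chr6:122707239-122707538 on the plus strand and Zfp42, a pluripotency zinc finger gene, at chr8:43306960-43307259 on the minus strand.
Nanog: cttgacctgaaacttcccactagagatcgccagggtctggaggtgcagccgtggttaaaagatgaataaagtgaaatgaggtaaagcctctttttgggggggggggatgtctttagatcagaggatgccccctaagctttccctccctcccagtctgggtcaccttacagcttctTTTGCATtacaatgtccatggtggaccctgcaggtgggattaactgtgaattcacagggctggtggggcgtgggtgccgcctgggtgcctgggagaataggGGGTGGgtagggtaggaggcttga
Zfp42: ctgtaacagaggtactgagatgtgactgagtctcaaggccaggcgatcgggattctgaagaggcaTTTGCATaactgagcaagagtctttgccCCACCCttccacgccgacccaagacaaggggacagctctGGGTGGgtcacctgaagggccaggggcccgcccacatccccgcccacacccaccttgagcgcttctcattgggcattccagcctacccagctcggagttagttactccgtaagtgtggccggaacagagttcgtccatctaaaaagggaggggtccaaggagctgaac
In Nanog the octamer core lies 75 bases before the start and a CACCC box 27 bases after it. In Zfp42 the octamer core lies 185 bases before the start, with CACCC boxes 157 and 118 bases before it. These are letter matches in the window and not measured binding. No octamer core lay in the windows of Esrrb, Pou5f1 or Utf1. A CACCC box lay at both starts of Esrrb and at the first start of Pou5f1, and not at its other start or in Utf1.

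Over all 32851 RefSeq promoters of this length 4.63% held the octamer core, and 3.67% of the 14435 promoters of genes tested. By onset from day 2 to the late stage, the share was 6.19% (20 of 323 promoters), 5.06%, 4.80%, 4.18% and 3.53% in the sustained rises and 3.72%, 3.00%, 3.93%, 4.42% and 4.70% in the sustained falls. It was 6.76% in the transient rises of day 2 (43 of 636), and 1.85%, 3.33% and 2.1% in those of days 4, 6 and 10. The CACCC box was in 37.5% of promoters of genes tested. In the same order it was in 49.5%, 39.3%, 47.6%, 36.9% and 27.6% of the sustained rises and 35.9%, 42.7%, 38.4%, 43.1% and 40.8% of the sustained falls. In the transient falls of days 2, 4, 6 and 10 its shares were 47.2%, 48.6%, 25% (3 of 12 promoters) and 0% (0 of 10). Genes with several starts count with each. The E-box CACGTG was in 9.69% of the promoters of genes tested, in 13.6%, 13.5%, 9.20%, 7.12% and 11.2% of the sustained rises and in 8.36%, 7.12%, 6.11%, 10.5% and 5.64% of the sustained falls. The Sox core ACAAAG was in 14.2% of those tested, in 17.6%, 12.9%, 13.2%, 18.4% and 20.6% of the rises and in 16.7%, 15.5%, 19.7%, 18.2% and 16.9% of the falls. No test was made of these shares.

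From day 4 to day 6, 5 genes passed (0.0264%), all higher: Sfn, Cldn6, Esrrb, Krt18 and Lsr. At an unadjusted p under 0.05 there were 1090, edgeR on the recovered reads called 72 higher and 8 lower, and DESeq2 21 higher. Leaving out either library of day 2, 4, 6 or 10 ended all 5 calls, with adjusted p from 0.0845 to 0.797. Sfn, an epithelial 14-3-3 protein, was at 0 CPM in all 6 libraries to day 4 and at 0, 0, 0, 30.0, 129, 125 and 129 CPM in R9 and 0, 0, 0, 35.3, 181 and 43 CPM in R10 over the course. Cldn6, a claudin of embryonic epithelia, was at 0, 0, 0, 19.1, 145, 82.3 and 35.7 CPM in R9 and 0, 0.79, 0, 29.1, 297 and 56.4 CPM in R10. Both were at 0 CPM in the day 4 libraries, where 0 reads allow up to 6.27 CPM in R9, and between 19.1 and 35.3 CPM in the day 6 libraries, with steps of 5.07 ± 0.59 and 4.62 ± 0.52 (adjusted p = 0.031 for both, limma). Krt18, a keratin of simple epithelia, was at 0, 1.13, 2.09, 20.5, 297, 237 and 97.3 CPM in R9 and 0.879, 4.74, 2.13, 46.8, 653 and 202 CPM in R10, and rose by 3.37 ± 0.43. Esrrb, an orphan receptor of naive pluripotency, rose by 3.77 ± 0.48 from 0 CPM in both day 4 libraries, after 5.38 and 3.51 CPM at day 0.

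Of 20 epithelial genes tested, 19 were called over the timeline, all up, where 13.5% of all genes were called up. At single steps 3 rose from day 0 to day 2 (3.73% of all genes) and none from day 2 to day 4 (0.0158%). From day 4 to day 6, 2 rose (0.0264%), and 1 rose from day 6 to day 10 (0.1%). Onsets lay at day 2 in 2, at day 4 in 2, at day 6 in 12 and at day 10 in 3. The list median difference from day 0 was 0.64 at day 2, 0.65 at day 4, 4.13 at day 6, 5.90 at day 10 and 3.98 at the late stage. Over all genes tested, these medians were 0.08, 0, 0.01, 0.09 and -0.06. Cdh1, E-cadherin, came earlier than most, at 0, 7.91, 16.7, 57.3, 54.9, 77 and 69 CPM in R9 and 1.32, 8.69, 16, 56.5, 138 and 148 CPM in R10. Epcam, an epithelial adhesion molecule (chromosome 17, 87635952 to 87651133), was at 0, 2.26, 25, 201, 532, 212 and 211 CPM in R9 and 0.439, 3.16, 9.58, 80.4, 367 and 484 CPM in R10, highest at day 10 in R9 and at day 18 in R10. Krt8, the partner of Krt18, was at 0, 1.13, 14.6, 84.6, 160.3, 129 and 60.3 CPM in R9 and 0.439, 2.37, 7.45, 97.2, 224 and 54.9 CPM in R10. The 3 genes with later onset were Cldn4, Krt7 and Grhl2. Of the 20, 3 fell from day 10 to the late stage (6.03% of all genes) and none rose, and with median centring or quantile normalization none fell. Cldn3 was the only transient one, at 0, 0, 6.26, 27.3, 43.6, 21.1 and 1.23 CPM in R9 and 0, 6.32, 4.26, 15, 100.1 and 23.7 CPM in R10.

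Of 24 pluripotency genes tested, 23 were called up over the timeline, where 13.5% of all genes were, and none of them was transient. At single steps 3 rose at day 2 (3.73% of all genes), 1 at day 4 (0.0158%) and 1 at day 6 (0.0264%). None rose at day 10 (0.1%) and 1 at the late stage (1.76%). Their onset lay at day 2 in 3, at day 4 in 4, at day 6 in 8 and at day 10 in 8, and Nr0b1 was not called. All 24 were called higher at the late stage than at day 0 (9.99% of all genes), also without the day 18 library of R10 and with median centring, and 23 without the day 20 library of R9. The list median was 0.72 at day 2, 1.29 at day 4, 3.61 at day 6, 5.46 at day 10 and 5.89 late. The earliest were Klf5, Fbxo15 and Trim71. Fbxo15, a long-used reporter gene of reprogramming, was at 0, 18.1, 75.1, 128, 124, 86.5 and 119 CPM in R9 and 0.879, 17.4, 35.1, 23, 80.6 and 46 CPM in R10. Klf5, a Klf4 relative, was at 4.04, 39.6, 31.3, 47.8, 103, 119 and 261 CPM in R9 and 3.95, 27.7, 20.2, 22.1, 73.8 and 43 CPM in R10. Sall4, a zinc finger factor of embryonic cells, had its onset with Nanog at day 4 and was at 0, 0, 4.17, 45, 53.4, 34.8 and 88.7 CPM in R9 and 0, 1.58, 28.7, 42.4, 102 and 81.6 CPM in R10. L1td1, an RNA-binding protein of pluripotent cells, was at 0, 1.13, 23, 146, 138, 175 and 485 CPM in R9 and 0.879, 6.32, 76.6, 262, 215 and 78.6 CPM in R10.

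Day 6 brought a larger set. Zfp42 was at 0, 1.13, 4.17, 58.7, 201, 353 and 725 CPM in R9 and 0.879, 1.58, 3.19, 11.5, 188 and 295 CPM in R10. Utf1, a chromatin factor of pluripotent cells, was at 0, 2.26, 4.17, 219.7, 619, 621 and 904 CPM in R9 and 1.32, 3.16, 3.19, 55.6, 635 and 292 CPM in R10. Tdgf1, the Nodal co-receptor Cripto, was at 1.35, 0, 4.17, 73.7, 447, 608 and 441 CPM in R9 and 0.439, 3.16, 5.32, 37.1, 232 and 310.1 CPM in R10. In all 3 the R9 library of day 6 stood above the R10 library of that day. This order held for Dppa5a too, and was not tested as a group. Of the Nodal pathway genes on these lists, Lefty1 and Nodal had their onset at day 6 and Lefty2 at day 10. Chchd10, a mitochondrial protein outside these lists, was at 4.04, 21.5, 41.7, 306, 913, 1069.9 and 1008 CPM in R9 and 0.879, 24.5, 43.6, 64.5, 418 and 1392 CPM in R10.

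From day 6 to day 10, 19 genes passed (0.1%), all higher. At an unadjusted p under 0.05 there were 2452. Without the late stage 598 passed, 441 up and 157 down, and edgeR called 432 up and 183 down. Of the named genes, Acer2, an alkaline ceramidase, was at 0, 0, 0, 0, 29.5, 67.5 and 122 CPM in R9 and 0.439, 0, 0, 0, 19.5 and 50.4 CPM in R10 (4.65 ± 0.61, adjusted p = 0.0482, limma). Trim6, a ubiquitin ligase, was at 0, 0, 0, 0, 19.7, 17.9 and 22.2 CPM in R9 and 0, 0.79, 0, 0, 17.8 and 16.3 CPM in R10 (4.30 ± 0.55). Nphs1, which encodes nephrin, was at 0, 0, 0, 0, 18.3, 24.3 and 23.4 CPM in R9 and 0.439, 0, 0, 0, 15.3 and 11.9 CPM in R10 (4.15 ± 0.55), and Gm12617 moved by 3.94 ± 0.51. These 4 were at 0 CPM in all libraries of days 4 and 6 and at 8.49 CPM or more in both libraries of day 10. Each lost its call without any 1 library of days 0 to 10, with adjusted p from 0.0964 to 0.325. Gm10132 passed by 5.27 ± 0.53, but it was at 0 CPM in the 4 libraries of days 4 and 6 and at 31 and 21.1 CPM at day 0. It is 1 of 49 genes with such a gap, which are described with the transcripts.

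The 498 genes with a sustained rise from day 10 include known genes of pluripotent cells and early embryos. Dppa5a, an RNA-binding protein of early embryos (chromosome 9, 78347670 to 78388320), was at 4.04, 5.65, 8.35, 577, 4360.4, 7543 and 6369 CPM in R9 and 7.03, 14.2, 9.58, 102, 5065 and 14001 CPM in R10. It rose in both chemistries from under 15 CPM at day 4 to 4360 and 5065 CPM at day 10. Dnmt3l, the cofactor of de novo DNA methylation, was at 0, 0, 0, 23.2, 95.6, 138 and 300.4 CPM in R9 and 0, 0, 0, 1.77, 72.1 and 97.9 CPM in R10, and Trap1a, an X-linked germ cell and embryo antigen, at 0, 0, 2.09, 15, 143, 171 and 385 CPM in R9 and 0, 0.79, 1.06, 1.77, 55.2 and 153 CPM in R10. Rps4l, a ribosomal protein gene copy, was at 0, 3.39, 0, 5.46, 129, 460.0 and 747 CPM in R9 and 2.2, 2.37, 1.06, 4.42, 67.9 and 206 CPM in R10. Cldn4 was at 0, 0, 0, 12.3, 153, 90.7 and 43.1 CPM in R9 and 0, 0, 1.06, 11.5, 196 and 134 CPM in R10. Of the 8 DNA methylation enzymes, Dnmt3b, Dnmt3l and Tet1 were called up (13.5% of all genes) and Dnmt3a down (10.9%). Dnmt3b was at 0, 2.26, 4.17, 39.6, 63.3, 61.2 and 108 CPM in R9 and 2.64, 4.74, 1.06, 7.95, 17.8 and 32.6 CPM in R10.

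A further 131 genes rose with onset at day 10 and were transient. Otx2, a formative pluripotency factor, was at 0, 0, 2.09, 16.4, 66.1, 24.3 and 6.16 CPM in R9 and 0, 0.79, 0, 1.77, 78.1 and 4.45 CPM in R10. It was high in both day 10 libraries, and lower at day 14, day 18 and day 20. Slc39a8, a zinc importer, was at 0, 0, 0, 21.8, 83, 4.22 and 1.23 CPM in R9 and 0, 0.79, 3.19, 1.77, 61.9 and 4.45 CPM in R10. Irf1, an interferon response factor, was at 5.38, 14.7, 6.26, 8.19, 54.9, 13.7 and 11.1 CPM in R9 and 6.15, 7.9, 6.38, 6.18, 56.9 and 10.4 CPM in R10. Of 9 formative and primed genes tested, of 14 listed, 6 were called up (13.5% of all genes) and 2 down (10.9%), and Fgf5, T, Cer1, Mixl1 and Eomes did not pass the filter on low values or were not analysed here.

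The step from day 10 to the late stage called 1477 genes (7.79%), 333 higher (1.76%) and 1144 lower (6.03%). The split depended on the scaling: with each library centred on its median, 1463 were higher and 386 lower, so that the larger side changed, and with quantile normalization 440 and 548, where it did not. The median of all genes moved by -0.25 as deposited and 0.39 after centring. Without the R10 library of day 18 there were 2788 calls, 906 up and 1882 down. Without the R10 library of day 10 there were 11, all lower, and without the R9 library of day 10 there were 111. Statements on single genes below hold relative to that shift. In R10 the step also goes from 9.32% to 17.3% of transcript TPM on incomplete splice matches.

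Of the 5 named rises, Fkbp6, Ddx4 and Rhox13 are known from the germline. Fkbp6, a meiotic chaperone, was at 0, 0, 0, 0, 2.81, 16.9 and 59.1 CPM in R9 and 0, 0, 0, 0, 0 and 66.8 CPM in R10 (5.03 ± 0.61, adjusted p = 0.00396, limma). Ddx4, the germ cell helicase Vasa (chromosome 13, 112598333 to 112652365), was at 0, 0, 0, 0, 1.41, 8.44 and 19.7 CPM in R9 and 0, 0, 0, 0, 0 and 49 CPM in R10 (4.37 ± 0.59, adjusted p = 0.00577). Both were at 0 CPM in every library to day 6, low at day 10 and higher at days 14, 18 and 20. Rhox13, an X-linked reproductive homeobox gene, rose by 4.33 ± 0.71. Eif4a3l1, a gene on the 2-cell-like list, was at 1.35, 0, 0, 0, 1.41, 26.4 and 65.3 CPM in R9 and 0, 0, 0, 0, 0 and 10.4 CPM in R10 (4.15 ± 0.68), and Gm5039 moved by 4.28 ± 0.51. Eif4a3l1 and Gm5039 belong to families of close copies, among which reads may be divided. Without the R10 library of day 10 the adjusted p was 0.0595 for Fkbp6 and Gm5039, 0.0942 for Ddx4, 0.0529 for Rhox13 and 0.134 for Eif4a3l1. Without the R10 library of day 18, 4 of the 5 kept their call and Gm5039 did not pass the filter on low values.

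Other late rises were single genes. Rpl10l, a testis copy of a ribosomal protein gene, was at 0, 0, 0, 0, 14.1, 66.5 and 121 CPM in R9 and 0, 0, 0, 0, 3.39 and 41.5 CPM in R10. Mymx, the myoblast fusion peptide, was at 0, 0, 0, 0, 18.3, 80.2 and 87.4 CPM in R9 and 0, 0, 0, 0, 0.849 and 47.5 CPM in R10. H19, an imprinted lncRNA, was at 0, 0, 0, 0, 1.41, 2.11 and 12.3 CPM in R9 and 0, 0, 0, 0, 0 and 5.94 CPM in R10. Gata6, a primitive endoderm factor, was at 0, 0, 0, 0, 0, 5.28 and 9.85 CPM in R9 and 0, 0, 0, 0, 0 and 4.45 CPM in R10. It passed the filter through the late libraries alone. In the day 18 library 3 reads are 4.457 CPM, and 0 reads at day 10 allow 4.225 CPM in R9 and 2.549 CPM in R10. Gata4 was not called. Of the 8 genes on the 2-cell-like list only 2 passed the filter, Eif4a3l1 and Tcstv3. Both were called up over the timeline, where 13.5% of all genes were. Without the day 20 library of R9, or without the day 18 library of R10, only 1 of them passed the filter. The filter thus sets these calls in part.

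Of the progenitor list 6 of 18 genes fell at this step and of the astrocyte and acute-phase list 5 of 16, where 6.03% of all genes fell. With median centring 4 of each list fell, and without the day 18 library of R10 6 and 7. Acsbg1, a brain acyl-CoA synthetase, was at 245, 241, 188, 116, 84.4, 49.6 and 0 CPM in R9 and 210.0, 212, 161, 106, 29.7 and 1.48 CPM in R10 (-5.02 ± 0.49, adjusted p = 0.00161). It declined from day 4 and was at or near 0 late. BC064078, a gene of unstated function, was at 141, 124, 131, 214, 163, 33.8 and 3.69 CPM in R9 and 155, 115, 103, 62.7, 85.7 and 2.97 CPM in R10 (-4.79 ± 0.41, adjusted p = 7.51e-04). Both kept their call without any single library. Lcn2, an acute-phase lipocalin, had risen at day 2 and was at 0, 38.4, 35.5, 36.8, 59.1, 4.22 and 0 CPM in R9 and 0, 10.3, 9.58, 0.883, 16.1 and 0 CPM in R10 (-5.00 ± 0.93). Cd59a, a complement inhibitor, was at 0, 84.8, 31.3, 158, 156, 39 and 2.46 CPM in R9 and 1.76, 49, 25.5, 45.9, 219.8 and 13.4 CPM in R10 (-4.72 ± 0.76). Tmem176a, a membrane protein, was at 350.0, 846, 257, 259, 449, 178 and 0 CPM in R9 and 364, 601, 140.5, 67.1, 362 and 34.1 CPM in R10 (-6.09 ± 1.24, adjusted p = 0.022). Lcn2, Cd59a and Tmem176a lost the call without either library of day 10, with adjusted p from 0.0752 to 0.16.

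By onset, which is set on the log2(CPM + 1) scale, the falls of progenitor genes were spread over the course. Of 18 progenitor genes, 15 were called down (10.9% of all genes), with onset at day 2 in Olig1, Olig2 and Ptprz1, at day 4 in 4, at day 6 in 5 and at the late stage in Pax6, Sox9 and Ccnd2. Sox1 was called up, from 0 CPM at day 0 to 0, 1.13, 10.4, 16.4, 1.41, 0 and 2.46 CPM over the R9 days and 0, 0.79, 8.51, 1.77, 1.7 and 2.97 CPM over the R10 days. Fabp7 was at 3623, 2169.8, 229.5, 194, 43.6, 6.33 and 3.69 CPM in R9 and 3951, 1234, 232, 41.5, 33.1 and 2.97 CPM in R10. It was lower at each stage than at the one before in both chemistries. Ptn, pleiotrophin, was at 1477, 451, 102, 69.6, 29.5, 29.5 and 0 CPM in R9 and 1332, 345, 35.1, 23.8, 21.2 and 4.45 CPM in R10. Pax6, a neural transcription factor, was at 29.6, 17, 27.1, 19.1, 18.3, 7.39 and 3.69 CPM in R9 and 29, 37.1, 20.2, 22.1, 22.9 and 2.97 CPM in R10, near its day 0 level to day 10. Ccnd2, a cyclin of progenitors, was at 517, 677, 528, 393, 353, 375 and 39.4 CPM in R9 and 1474, 884, 751, 585, 547 and 95 CPM in R10. Emcn, an endothelial sialomucin expressed in these progenitors, was at 293, 136, 29.2, 17.7, 18.3, 51.7 and 0 CPM in R9 and 163, 79, 19.2, 13.2, 16.1 and 0 CPM in R10. Summed over the list, CPM went from 7566 and 8437 at day 0 to 3658 and 2891 at day 2 and 991 and 1143 at day 4. It ended at 65.3 at day 20 and 129 at day 18. Most of the summed level, of which Fabp7 held a large part, was thus gone by day 4, before the onsets at day 6 and late. An onset on the log2 scale is therefore not the day on which a fall began. The list median of the difference from day 0 was -1.17, -2.98, -3.59, -3.23 and -4.88 from day 2 to the late stage.

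**Figure D4:**
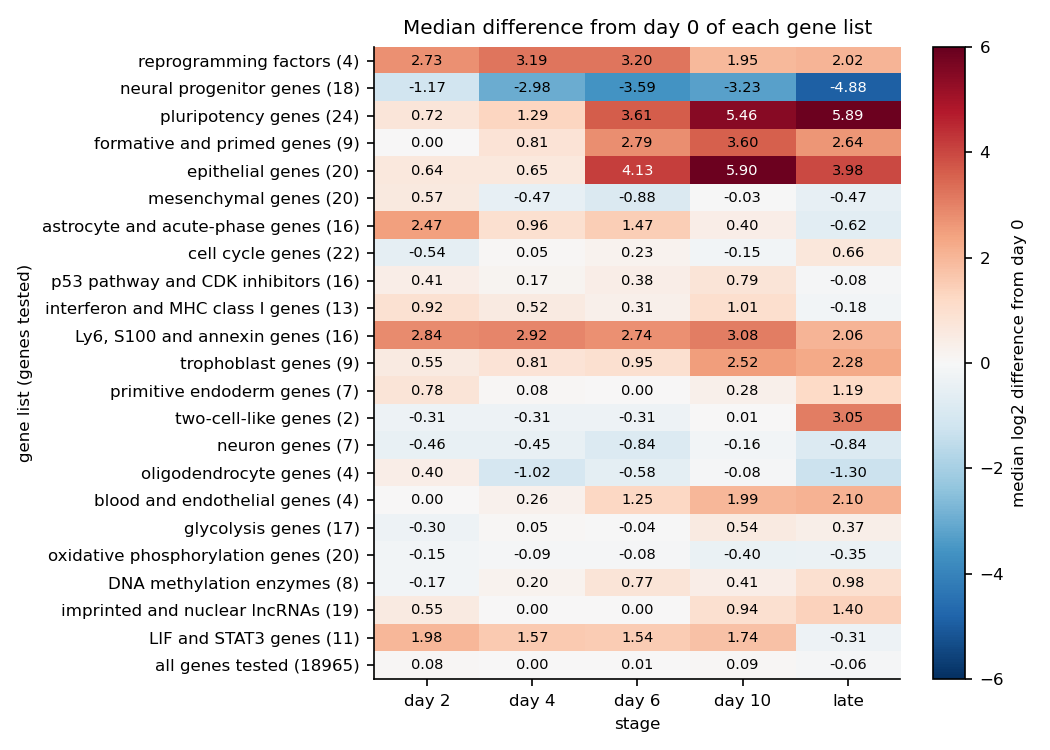
Median log2 difference from day 0 of each gene list at days 2, 4, 6, 10 and the late stage, with all genes tested for comparison. Epithelial genes are highest at day 10, pluripotency genes at the late stage, and progenitor genes are lowest there.

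Mesenchymal genes split. Of 20 tested, 6 were called up (Acta2, Tagln, Cnn1, Tpm2, Col1a1 and Fn1) and 6 down (Cdh2, Zeb1, Twist1, Vim, Postn and Lum), where 13.5% of all genes were called up and 10.9% down. Those up are mainly contractile genes and those down include N-cadherin and the EMT factors Zeb1 and Twist1. Cdh2 was at 164, 212, 37.6, 16.4, 12.7, 8.44 and 6.16 CPM in R9 and 184, 123, 45.8, 10.6, 12.7 and 5.94 CPM in R10. Zeb1 was at 141, 21.5, 12.5, 8.19, 8.44, 12.7 and 4.93 CPM in R9 and 213, 33.2, 10.6, 6.18, 11 and 1.48 CPM in R10. Tagln, transgelin, was at 1.35, 400.0, 131, 75.1, 311, 315 and 73.9 CPM in R9 and 2.64, 125, 35.1, 41.5, 171 and 78.6 CPM in R10, with highs at days 2, 10 and 14. Of 6 markers of mesenchymal cells, Col1a1 was thus up, Postn and Lum were down, and Col1a2, Col3a1 and Dcn were not called.

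Among the other lists, interferon and MHC class I genes had 7 of 13 called up over the timeline and 2 down, where 13.5% of all genes were called up and 10.9% down. Ifitm3 was at 43.1, 471, 831, 1231, 1167, 987 and 382 CPM in R9 and 36.5, 367, 311, 200.5, 470.1 and 175 CPM in R10 and Bst2, an antiviral tetherin, at 39, 38.4, 79.3, 247, 537, 211 and 117 CPM in R9 and 18, 30.0, 69.2, 259, 481 and 166 CPM in R10. Their list median was 1.01 at day 10 and -0.18 at the late stage, which turned positive after centring. Trophoblast genes had 6 of 9 tested up and none down, Tfap2c at 0, 4.52, 29.2, 36.8, 38, 16.9 and 25.9 CPM in R9 and 0.439, 8.69, 42.6, 93.6, 112 and 29.7 CPM in R10 among them, while Cdx2 and Elf5 were not analysed here. Of 16 p53 pathway genes and CDK inhibitors 5 were up and 1 down. Cdkn2a, which encodes p16 and p19Arf, was at 67.3, 67.8, 119, 151, 145, 82.3 and 19.7 CPM in R9 and 57.1, 70.3, 127, 145, 171 and 54.9 CPM in R10, above day 0 at days 4 to 10 and at or below it late. Cdkn1a, p21, was not called (adjusted p = 0.244).

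Glycolysis genes had 3 of 17 up and 1 down, a share near the 24.3% of all genes. Slc2a3, a glucose transporter, was at 43.1, 21.5, 41.7, 134, 568, 363 and 228 CPM in R9 and 8.35, 32.4, 42.6, 227, 377 and 745 CPM in R10 and Slc2a1 at 56.5, 132, 50.1, 84.6, 479.6, 303 and 128 CPM in R9 and 36, 114, 66, 218, 481 and 177 CPM in R10. Slc16a3, the lactate exporter, was at 24.2, 0, 0, 5.46, 101, 68.6 and 9.85 CPM in R9 and 18, 0, 1.06, 45, 63.6 and 72.7 CPM in R10, at or near 0 CPM at days 2 and 4. Oxidative phosphorylation genes had 2 of 20 down and none up, and cell cycle genes 3 of 22 up and 4 down. Ccne2, a cyclin, was at 32.3, 21.5, 31.3, 15, 5.63, 7.39 and 20.9 CPM in R9 and 43.5, 15.8, 31.9, 22.1, 5.94 and 17.8 CPM in R10, lowest at day 10. Nme1, a nucleoside kinase and Myc target, was at 754, 639.6, 945, 706, 335, 626 and 979 CPM in R9 and 754, 673, 915, 809.9, 169.7 and 297 CPM in R10, also lowest at day 10.

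Lists of other lineages held few tested genes, and the same shares of all genes, 13.5% up and 10.9% down, apply to them. Neuron genes had 2 of 7 tested up and 2 down. Stmn2, a microtubule regulator of neurons, was at 1.35, 128, 495, 315, 385, 673 and 769.6 CPM in R9 and 1.76, 165, 451, 761, 234 and 748 CPM in R10, under 2 CPM at day 0 and above 200 CPM from day 4 on. Rbfox3 and Snap25 were not called. Oligodendrocyte genes had 1 of 4 up and 2 down, with Mog and Sox10 not tested. Blood and endothelial genes had 2 of 4 up, while Ptprc and Tyrobp were not tested. Primitive endoderm genes had 3 of 7 up and 1 down, and Sox17 and Foxa2 were not tested.

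Among 19 tested lncRNAs of the imprinted and nuclear list, 8 were called up (13.5% of all genes) and 1 down (10.9%). Pantr1, a brain lncRNA, was at 412, 58.8, 25, 20.5, 25.3, 15.8 and 1.23 CPM in R9 and 508, 68.8, 28.7, 7.95, 8.49 and 1.48 CPM in R10. Platr3, a pluripotency-associated lncRNA, was at 0, 0, 0, 1.36, 9.85, 23.2 and 64 CPM in R9 and 0, 0, 0, 0.883, 11.9 and 19.3 CPM in R10. Snhg1, a snoRNA host gene, was at 284, 294, 628, 600.4, 617, 474 and 441 CPM in R9 and 183, 481, 502, 599, 737 and 975 CPM in R10. Malat1 was not called, and its R10 libraries, made without poly(A) enrichment, held 1882 to 11785 CPM against 172 to 3363 CPM in R9. Of genes named by the authors' assembly alone, 164 of 1191 antisense genes and 167 of 1140 numbered ones were called in either direction. Both shares are below the 24.3% of all genes. Strand use in counting is not given in the sources used here, so antisense genes and their partners may share reads.

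Transcript shares were tested within genes of at least 10 TPM in all 12 libraries. Of 10508 transcripts in 3201 genes, 165 were called (1.57%), in 155 genes, 34 of which were also called over the timeline, where 24.3% of all genes were. In the calls, 123 transcripts held a splice site outside the reference, by the authors' classification, and 13 matched a reference transcript in full. Of the 10508 tested, these were 2174 and 5342. Of the 165, 156 (94.5%) were at 0 TPM in both libraries of at least 1 stage. The zeros came in whole sets of libraries. Zero or not was the same at days 4 and 6 for 93.9% of called transcripts, but at days 2 and 4 for 55.2% and at days 6 and 10 for 57.0%.

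The top transcript shows the form. Rps13-ps1.G50694.3 (chromosome 8, 87040263 to 87048231, 582 bases in 2 exons) made up 98.3% to 100% of its gene's TPM at days 0, 2, 10 and late, in both chemistries, and 0% at days 4 and 6 in both. The gene's summed TPM went from 6880 at day 2 to 74.1 at day 4 and back to 9512 at day 10 in R9. The gene's CPM stayed between 1738 and 4443 in all libraries. Rps3a3.G15021.3 was at 99.6% to 99.9% to day 6 and at 0% from day 10 on. Gm11273.G13101.8 and Prpf3.G33474.555 were at 0% at day 2 alone in both chemistries, and Trim28.G45314.569 was above 0% at day 0 alone. Cdk2ap2.G25790.35 was above 0% at days 4 and 6, and at 67.1% in the R10 library of day 18. These shares describe the deposited table, and whether the transcripts themselves came and went was not tested.

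The same held for all transcripts. Of those at 10 TPM or more in at least one of the compared stages, 4.32% were at 0 TPM in both libraries of one of days 4 and 6 and at or above the minimum at the other. The share was 10.1% between days 2 and 4, 9.44% between days 6 and 10, 8.16% between day 10 and the late stage and 17.4% between day 0 and the late stage. For genes at 5 CPM or more the shares ran from 0.383% to 6.62%. In the gene table, 49 genes were at 0 CPM in a stage between stages at which they were expressed, and 36 of them were called over the timeline. Without these 49 genes 4573 genes were called over the timeline and 17 at the step from day 6 to day 10.

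**Figure D5:**
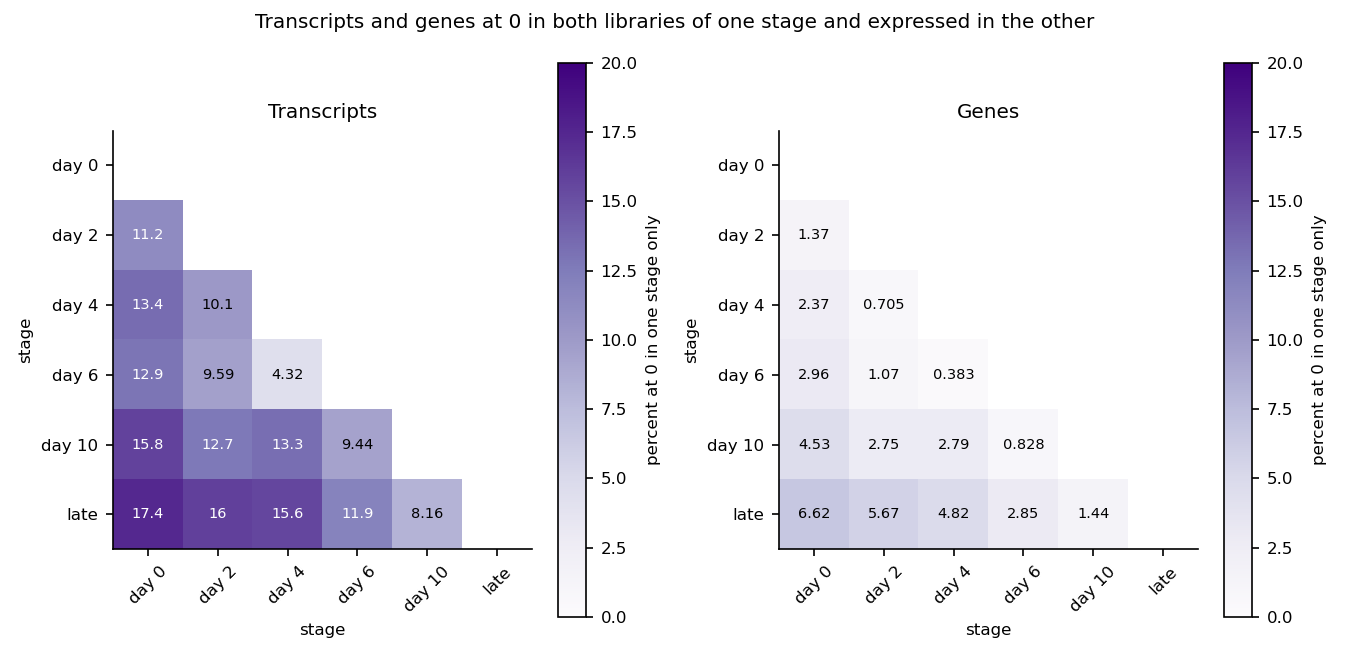
Percent of features at 0 in both libraries of one stage and at or above the minimum in the other, for each pair of stages, transcripts and genes apart. The pair of days 4 and 6 has the lowest value, 4.32% of transcripts and 0.383% of genes.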

How the data were processed

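Gene values are CPM as deposited by the authors, in a table whose name refers to IsoQuant, and transcript values are TPM as deposited by the authors. Reads were aligned with minimap2 2.24-r1122 to mm10, per the submitters' processing notes. Versions and parameters of the counting are not given in the sources used here. Transcript coordinates, lengths and categories are from the deposited annotation and classification, counted in bases. Gene models span all deposited transcripts of a name. 13 columns that match no sample were not used, 20 gene names had turned into numbers, and 23575 genes and 276608 transcripts were listed.

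CPM values are whole multiples of 1 read: 100% of values gave whole reads within a tolerance of 0.02, so depths and reads were recovered and used for edgeR 4.0.16 and DESeq2 1.42.0 as alternatives. The main test was limma 3.58.1 (R 4.3.3) on log2(CPM + 1), two-sided, with chemistry as a term, over the 12 libraries of 6 stages, for genes with at least 1 CPM in at least 2 libraries. A call needs an adjusted p under 0.05 (Benjamini-Hochberg over all genes tested) and an absolute difference of at least 1. Transcript shares were tested on the arcsine square root scale, for mean shares from 5% to 95%, with a range of at least 20 percentage points. Day 14 is in no stage fit. The limma stage fit, the R9 trend, the day 2 difference from the wild type and the transcript shares were tested on simulated data. The R10 trend, the fit with a replicate block, edgeR and DESeq2 were not.

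Named genes are the 5 largest rises and falls of each step and the 5 largest of each wave, with at least 10 CPM on average at the higher stage and the same sign in both chemistries, up to 4 genes of each list, the 4 factors and 6 transcripts. Other genes are printed as list members or were chosen after their values were seen. The members and the 22 gene lists were chosen with earlier results of these data known. Alternatives were the pseudocount, filters, scaling, tool, chemistry term, the late stage and each library left out in turn. Removing interrupted genes, and wave and list counts under other scalings or without a late library, were added after seeing the data.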

Additional observations from a re-analysis of the deposited data

Results flagged for a closer look

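The change from day 0 to day 2 differed between OKMS and wild-type cells, by the interaction test itself, for 1052 genes, of which those singled out are given here. Values below are OKMS minus wild type on the log2(CPM + 1) scale (limma, adjusted p under 0.05).

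Above the wild type were Ube2c by 6.02, Pclaf by 6.48, Birc5 by 5.64, Top2a by 5.51, Cdc20 by 5.45, Ccnb2 by 5.37, Mki67 by 4.71, Bub1 by 4.43, Ccne2 by 3.56, Myc by 3.52 and Nme1 by 2.01. Myb, a proto-oncogene transcription factor, was above it by 5.45. The factors Pou5f1 and Klf4 were above it by 5.21 and 4.17.

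Further genes above it were Fetub by 6.12, Perp by 5.09, Lama1 by 5.00, Ly6a by 4.91, Stmn2 by 4.54, Dmrtc2 by 4.39, Anxa8 by 4.33, Itgb4 by 3.12, 2200002D01Rik by 3.07, Hsd17b14 by 2.96, Krt6b and Tfap2c by 2.65 each and Lgals7 by 1.89.

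Below the wild type were Olig1 (-2.17), Mlc1 (-2.02), Gpm6a (-1.63), Sparcl1 (-1.46), Gpm6b (-1.35), Cnp (-1.28) and Nrep (-1.16), Myh8 (-4.30), Gm2606 (-3.63), Alb (-3.58) and Kdr (-2.58). Alb was at 14.2 to 76.3 CPM in the wild-type libraries of day 2 and at 1.13 and 1.58 CPM in OKMS. Ube2c, Pclaf, Birc5, Cdc20, Alb, Myh8 and Myb were chosen after their values were seen.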

How the results depend on the processing

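Counts of calls depended most on the steps with few of them. The step from day 2 to day 4 (88 calls) gave 3 with a pseudocount of 0.25, 46 with quantile normalization, 32 with median centring, 621 with edgeR, 177 with DESeq2, 15 without the chemistry term and 576 without the late stage. The step from day 4 to day 6 (5 calls) gave 0, 3, 11, 80, 21 and 0 under the first 6 of these and 14 with a minimum of 5 CPM. The step from day 6 to day 10 (19 calls) gave 1, 2, 2, 615, 96 and 2 under them, 3 with no filter, 69 with a minimum of 5 CPM and 598 without the late stage. Day 2 minus day 0 gave 1677 with edgeR and 1606 without the late stage, late minus day 10 gave 878 with DESeq2 and 651 without the chemistry term, and late minus day 0 gave 2915 with DESeq2. Median centring moved the split of day 2 minus day 0 from 707 higher and 332 lower to 601 and 439, and that of late minus day 0 from 1894 and 2608 to 2718 and 1809. Transcript shares gave 84 with at least 25 TPM, 96 with a mean share of at least 10% and 336 without the late stage. The cause of these moves was not tested.

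With each library left out in turn, the timeline gave 2516 to 6425 calls, day 2 minus day 0 gave 144 to 1597, day 4 minus day 2 gave 0 to 561, day 6 minus day 4 gave 0 to 10, day 10 minus day 6 gave 0 to 576, late minus day 10 gave 11 to 2788 and late minus day 0 gave 2010 to 4813. The R9 trend gave 1541 to 2634, the R10 trend 922 to 3396, the day 2 difference from the wild type 379 to 1133 and transcript shares 34 to 360. Where a stage is left with 1 library, that library is assumed to vary like the others. The larger side of the split changed for late minus day 10 with median centring (1463 higher and 386 lower) and DESeq2 (451 and 427), and for late minus day 0 with median centring and DESeq2 (1620 and 1295). So did that of the R10 trend, from 972 higher and 1228 lower to 1061 and 946 with quantile normalization, 1221 and 916 with median centring and 658 and 385 without day 18, and that of the R9 trend, from 1304 and 1160 to 780 and 1005 without day 0 and 852 and 965 without day 14. No gene named at a step reversed its direction in the settings run. For the genes named at a step, 269 left-out fits kept the call and 181 did not, and 265 other settings kept it and 58 did not.

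Each stage has 1 library per chemistry, so the timeline holds no numbered replicates. In the day 2 difference from the wild type, the fit with a replicate block called 1573 genes, 1199 above and 374 below, against 1052 without the block. The numbers are not stated to pair libraries, and deviations of the same-numbered wild-type R10 libraries, the only ones this could be checked on, correlated at 0.42 over 17437 genes. Depth limits low genes: 3 reads are 1.32 to 6.27 CPM.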
